A study of Mus musculus with 3 samples.

Results

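The genes Mbp, Mobp, Mog, Mag, Cnp, Cldn11, Mal, Ermn and Opalin encode proteins of the myelin sheath or of the oligodendrocytes that make it. These 9 genes were picked by name, with earlier results of these data known, and each has a row among the 32531 genes counted. They were read in ribosome-bound RNA of the dentate gyrus, taken from adult C57BL/6J mice of the NIDA186 Penk-TRAP line that had no treatment. In this line a green fluorescent protein fused to ribosomal protein Rpl10a is made under the regulatory DNA of the proenkephalin gene Penk. Tagged ribosomes are pulled down with antibodies against the fluorescent protein, a method called translating ribosome affinity purification. The 3 libraries, replicates 1 to 3, were all immunopurified samples of 1 group. Neither input nor unbound RNA was analysed here, so levels could be compared between genes and between replicates, but not with the tissue.

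Myelin is the membrane that oligodendrocytes, glial cells of the brain, wrap around axons. Its compact layers are held together by myelin basic protein, whose mRNA is carried along oligodendrocyte processes and translated next to the growing sheath. Other members sit at the sheath's outer face, in its channels and junctions, or in the cytoskeleton beneath it. The line was designed to tag Penk-expressing cells, and the labels name neurons as the target, so these 9 genes are markers of another cell type in the purified RNA. In bulk RNA, fewer cells of a type and less RNA per cell cannot be told apart, and RNA of tagged ribosomes cannot be told from RNA carried along in the purification.

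The libraries held 5348761, 19195559 and 11059982 counts on genes in replicates 1 to 3, and genes with at least 10 counts numbered 8795, 14252 and 12019. Levels are given in CPM, counts brought to 1 library size and scaled with TMM, a method that evens out library composition. A count of 0 allows a level of up to 3 counts, equal to 0.707, 0.131 and 0.257 CPM by counting error alone. Penk itself had 13.7, 66.0 and 12.1 CPM and was not called above the median tested gene (adjusted p = 0.528, edgeR). Of 9 dentate granule cell markers, 5 could be tested, and the rest did not pass the filter on low counts. Of these 5, 4 lay above the median tested gene in edgeR, the transcription factor gene Prox1 among them, and 3 in limma. Of 9 pan-neuronal markers 7 lay above it, against 13.6% of all tested genes in edgeR. The labels do not say whether replicates are separate animals, and p-values therefore measure only the spread between these samples, which may be technical.

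Upstream sequence of the members was read as a description of the genes. It was not used to account for differences between the libraries. RefSeq start sites on GRCm38.p6 were listed for 8 of the 9 genes. Windows of 250 bases ending at the start site are shown for Mog, the member that varied most between libraries, for Cnp, which varied less, and for Mobp, one of the most abundant. Capitals mark matches, on either strand, to CTGGCAC or CTGGTAC, the motif bound by the oligodendrocyte regulator MYRF, and to ACAAAG, a motif of SOX factors. The windows lie at chr17:37023399-37023648 on the minus strand for Mog, chr11:100574689-100574938 on the plus strand for Cnp, and chr9:120149492-120149741 on the plus strand for Mobp.
Mog: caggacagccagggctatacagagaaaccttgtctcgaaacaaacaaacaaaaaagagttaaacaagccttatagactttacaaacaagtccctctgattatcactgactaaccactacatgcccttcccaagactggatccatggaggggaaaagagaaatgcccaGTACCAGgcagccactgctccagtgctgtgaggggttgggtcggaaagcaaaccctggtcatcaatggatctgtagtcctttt
Cnp: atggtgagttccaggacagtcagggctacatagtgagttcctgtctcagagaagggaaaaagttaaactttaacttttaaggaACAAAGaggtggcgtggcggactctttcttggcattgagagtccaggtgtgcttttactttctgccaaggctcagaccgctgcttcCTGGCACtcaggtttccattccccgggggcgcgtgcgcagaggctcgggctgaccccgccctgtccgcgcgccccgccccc
Mobp: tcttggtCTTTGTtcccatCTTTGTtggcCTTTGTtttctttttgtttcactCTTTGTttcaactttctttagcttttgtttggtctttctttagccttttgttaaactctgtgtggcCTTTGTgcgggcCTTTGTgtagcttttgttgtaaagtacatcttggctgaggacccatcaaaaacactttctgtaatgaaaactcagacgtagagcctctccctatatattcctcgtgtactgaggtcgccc
The MYRF motif was present in Mog, in Cnp and at some of the listed starts of Mag, 3 of the 8 genes with a start, and in 5.93% of all 32851 windows of this length. The SOX motif was present in Mag, Mobp, Cnp and Opalin, and in 16.5% of all windows, with 6 matches in the Mobp window. CAGCTG, an E-box of the kind bound by OLIG factors, was present in none of the members' windows and in 13.0% of all windows. Members were counted per gene, over any of their listed starts, and the background per window, so their units differ. These counts describe letters in the windows and do not show binding.

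The structural proteins of compact myelin gave the highest levels. Mbp, myelin basic protein, had 1377, 7100 and 4446 counts in replicates 1 to 3, or 325, 310 and 380 CPM. Its level was 338 ± 37.2 CPM (SD, n = 3), or 40.0 ± 4.39 CPM per kb of exon. The 3 libraries lay close together, replicate 3 being 1.17-fold above replicate 1 (95% exact interval for counting error 1.10 to 1.25). Mobp, myelin-associated oligodendrocyte basic protein, had 687, 4511 and 3730 counts, or 162, 197 and 319 CPM. Here replicate 3 stood apart from the other two, at 1.97 times replicate 1 (1.82 to 2.14). Per kb of exon Mobp reached 33.0 ± 12.1 CPM (SD, n = 3). Mbp (chromosome 18, 82475146 to 82585637, plus strand, GRCm38) also yields golli transcripts, which some neurons make; counts per gene symbol do not separate them from classic myelin basic protein mRNA. Mobp lies on chromosome 9, 120149707 to 120181484, plus strand.

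Cnp encodes an enzyme that opens cyclic nucleotides and keeps cytoplasmic channels through myelin open. It had 243, 680 and 974 counts, or 57.3, 29.7 and 83.3 CPM, so that replicate 2 was the lowest. Mal encodes a proteolipid of membrane rafts that takes part in sorting proteins to myelin. It had 41, 867 and 1031 counts, or 9.67, 37.9 and 88.2 CPM. Replicate 3 exceeded replicate 1 by 9.13-fold (6.68 to 12.8), and replicate 2 lay between them. Ermn encodes ermin, a cytoskeletal protein of mature oligodendrocytes, and had 36, 663 and 256 counts, or 8.49, 28.9 and 21.9 CPM. Here replicate 1 was low and the other two were closer together. Exons of Cnp share 154 bases with Dnajc7, and those of Ermn 237 bases with Galnt5, on the opposite strand in both cases; reads there cannot be told apart unless the counting used strand, a setting the sources used here do not state.

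The other members are proteins of the sheath's surface and junctions. Mog, an immunoglobulin-type protein of the outermost myelin face, had 4, 86 and 333 counts, or 0.943, 3.75 and 28.5 CPM. Each library stood well apart from the next, and replicate 3 exceeded replicate 1 by 30.2-fold (11.7 to 112) and replicate 2 by 7.59-fold (5.97 to 9.73). Mag, an adhesion protein on the membrane facing the axon, had 5, 91 and 186 counts, or 1.18, 3.97 and 15.9 CPM. Its order of libraries was that of Mog, with replicate 3 at 13.5 times replicate 1 (5.68 to 42.1). Cldn11, the claudin of tight junctions between myelin layers, had 4, 118 and 53 counts, or 0.943, 5.15 and 4.53 CPM. Replicate 1 was lowest, and replicates 2 and 3 differed by no more than counting error (0.880-fold, interval 0.624 to 1.23). Opalin, a transmembrane glycoprotein of oligodendrocytes, had 0, 0 and 17 counts. Its 1.45 CPM in replicate 3 was 2.06 times the level of 3 counts in replicate 1 and 11.1 times that in replicate 2. Counting error of the 17 counts is not included in these values.

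**Figure D1:**
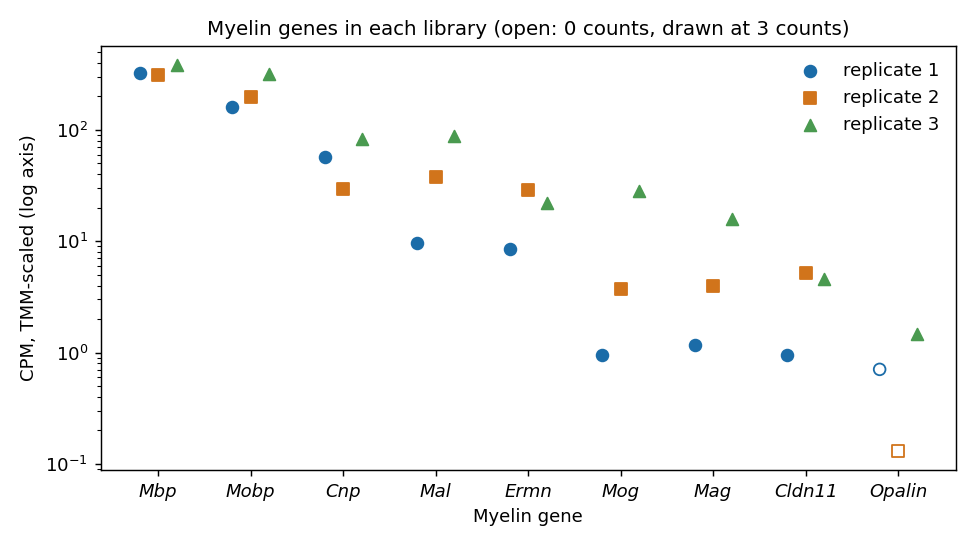
Scaled CPM (log axis) of the 9 myelin genes, in order of mean CPM, with 1 point for each library; open points are counts of 0 drawn at the level of 3 counts. Mbp sits between 310 and 380 CPM in all 3 libraries, whereas Mog runs from 0.943 to 28.5 CPM.

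As a sum, the 9 genes held 2397, 14116 and 11026 counts, which is 0.0448, 0.0735 and 0.0997% of gene counts in replicates 1 to 3. Scaled with TMM, the sum was 565, 616 and 943 CPM, so that replicates 1 and 2 lay closer together than in the raw share. Mbp and Mobp alone made up 86.1, 82.3 and 74.2% of that sum. The mix of members changed between libraries: per kb of exon, Mbp exceeded Mog 69.3-fold in replicate 1, 16.6-fold in replicate 2 and 2.69-fold in replicate 3. Mbp exceeded Mag per kb 132-fold, 37.5-fold and 11.5-fold in the same order. The ratio of Mbp to Mobp per kb moved far less, with 1.62, 1.27 and 0.964. When all libraries were thinned at random to the total of replicate 1, Mog still had 4, 23 and 148 counts and Mag 5, 25 and 94, so the order of libraries for both was also present at an equal total of gene counts.

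Which myelin genes stood above the median tested gene was asked per kb of exon, since longer transcripts collect more reads. Each gene's log2 CPM per kb was set against the median of 7924 tested genes in the same library. The test was edgeR's quasi-likelihood test of a level more than 1 log2 unit from that gene, two-sided, with Benjamini-Hochberg adjustment over all 7924. Of the 9 members, 6 passed the filter on low counts, and 2 of these 6 lay above the median gene, against 13.6% of all tested genes. Mbp lay above it by 2.73 on the log2 scale (adjusted p = 3.9e-04, edgeR) and in 3 of 3 libraries, with levels of 2.78, 2.52 and 2.86. Mobp lay above it by 2.44 (adjusted p = 0.00531, edgeR), also in 3 of 3 libraries, with 2.08, 2.17 and 2.91. Its call ended without replicate 2 (2.47, adjusted p = 0.0575, edgeR) and without replicate 3 (2.26, adjusted p = 0.134, edgeR).

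Cnp and Mal had log2 levels of 1.38 and 1.40 per kb against the median gene and did not pass (adjusted p = 0.628 and 0.638, edgeR). Without replicate 1, Mal passed, at 2.35 (adjusted p = 0.00638, edgeR). That setting tested 10425 genes, against 7924 with all libraries, so the median gene differed too. Mbp moved from 2.73 to 3.19 there. Ermn lay at -0.18 and Mag at -1.83 (adjusted p = 1 and 0.442, edgeR); without replicate 3, Mag passed as below the median gene, at -3.10 (adjusted p = 0.0442, edgeR). With all libraries, 0 of 6 members lay below it, also at an unadjusted p under 0.05 and in limma; 3.04% of tested genes did. With no filter, which lowers the median gene, 4 of 9 members lay above it, Cnp and Mal in addition, against 24.3% of genes. Mog, Cldn11 and Opalin did not pass the filter, each through replicate 1 or, for Opalin, also replicate 2. Their mean log2 levels were -1.05 ± 2.31, -1.91 ± 1.16 and -5.72 ± 1.93 (SD, n = 3), untested; that of Opalin depends on the prior count of 2 added before taking logs.

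**Figure D2:**
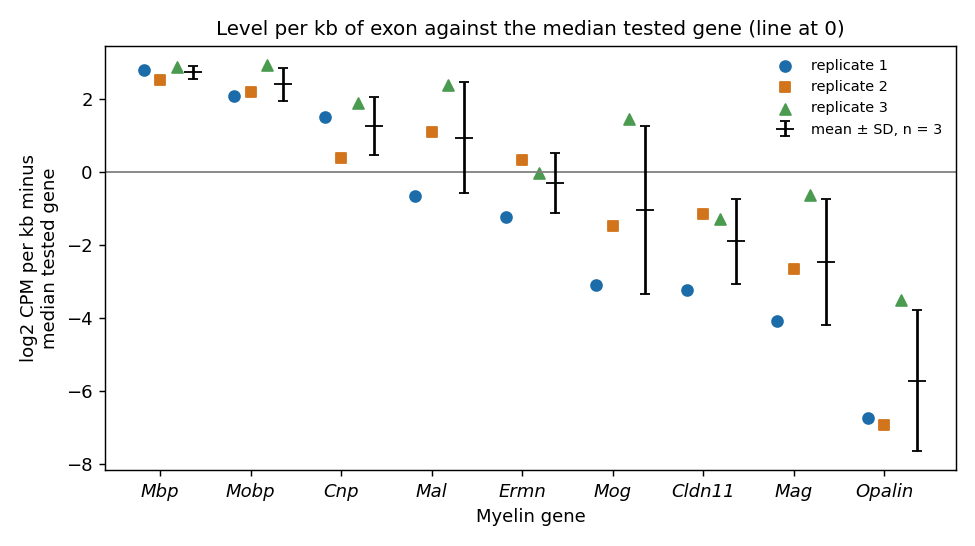
Log2 CPM per kb of exon minus the library's median tested gene (line at 0) for the 9 myelin genes, with 1 point for each library and bars of mean ± SD (n = 3). Mbp and Mobp lie above 2 in every library, while Mog lies at -3.12, -1.48 and 1.44.

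In the order of mean log2 CPM per kb, Mbp came first and Mobp second, followed by Cnp, Mal, Ermn, Mog, Cldn11, Mag and Opalin. Of the 8 steps between neighbours, 1 exceeded its spread, taken as the same sign in 3 of 3 libraries and a mean over 2 SD: Mag above Opalin, by 3.26 ± 0.89 on the log2 scale (SD, n = 3). With no length correction the step above Opalin, then from Cldn11, was 3.16 ± 1.80 and stayed within its spread. Opalin had 0 counts in replicates 1 and 2, so the size and spread of these steps depend on the prior count. The order was not computed with another prior count. Mbp exceeded Mobp by 0.33 ± 0.37, with replicate 3 at -0.05. Mobp exceeded Cnp by 1.14 ± 0.62 in 3 of 3 libraries, within 2 SD; with the longest transcript as length this step was 1.87 ± 0.62 and exceeded its spread. With 3 libraries an exact sign-flip test reaches no p under 0.25. Between Ermn and Mog the direction depended on the library, at 1.88, 1.80 and -1.47 in replicates 1 to 3.

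Variation between the libraries was set against that of all tested genes. Counts of 6 of the 6 tested members differed beyond sampling noise (Poisson chi-square, adjusted p under 0.05), and so did 97.6% of all tested genes, a share near the background. With no filter, 9 of 9 members did, against 88.7% of all genes. The range of log2 CPM, from the lowest to the highest library, was 0.30 for Mbp, and 97.9% of tested genes had a larger range. For Mobp it was 0.98 and for Cnp 1.48, with 80.1 and 61.3% of tested genes ranging more. At the other end, Mog, which did not pass the filter, ranged over 4.71, which 3.53% of tested genes exceeded, and Mag over 3.59, which 12.4% exceeded. The median range was 1.62 over the 6 members that passed the filter and 1.82 over all tested genes; with the 3 members that did not pass it was 2.27.

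**Figure D3:**
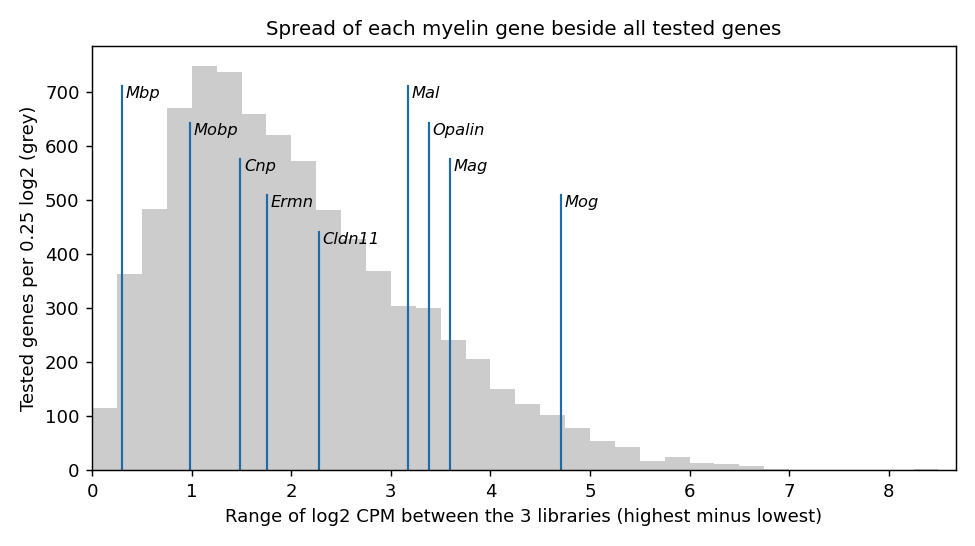
Histogram (grey) of the range of log2 CPM between the 3 libraries over 7924 tested genes, with blue lines at the 9 myelin genes. Mbp, at 0.30, lies at the low end of the histogram and Mog, at 4.71, in its upper tail; the range of Opalin depends on the prior count.

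Replicate 3 was the highest library for 7 of the 9 members and for 5 of the 6 that passed the filter, against 31.9% of all tested genes. Replicate 1 was the lowest for 6 of 9, with Opalin at 0 in replicates 1 and 2, and for 4 of the 6 that passed, against 42.7% of tested genes. The pattern of the median member, as log2 CPM centred on its own mean, was -0.94, 0.07 and 0.87 in replicates 1 to 3. Among 3196 tested genes outside all lists with at least 50 CPM, the 5 nearest to it lay at Euclidean distances of 0.049 to 0.099 over 3 libraries, Sltm, Dnajc21, Uba1 and Gna13 among them. Dnajc21, a co-chaperone gene, had 37.2, 76.4 and 142 CPM. Of the 3196 genes, 321 lay nearer to the pattern than Mobp did, the nearest member at 0.64. The farthest member was Mog at 2.12, and the median distance of the 3196 genes was 1.64. The pattern was therefore not confined to the listed genes.

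The median of the 9 members lay at log2 levels of -1.23, 0.32 and 1.44 per kb against the median tested gene in replicates 1 to 3, or 0.18 ± 1.34 (SD, n = 3). Relative to 9 pan-neuronal genes it lay at -3.39 ± 1.25 (SD, n = 3) on the log2 scale per kb, lower in 3 of 3 libraries. Pan-neuronal genes spread less between libraries, with medians of 3.58, 3.21 and 3.92, led by Snap25, a gene of vesicle fusion, at 1057 ± 471 CPM per kb. Dentate granule cell markers had medians of -0.44, 2.16 and 1.31, so that replicate 2 was their highest library. Their sums were 1760, 1992 and 1032 CPM, with replicate 2 again highest. The lowest library was replicate 1 by the median but replicate 3 by the sum. Prox1 had 658, 475 and 261 CPM, whereas C1ql3 had 0 counts in replicate 1.

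Other oligodendrocyte genes were read with lists chosen by function. For this and the following lists, the share over all tested genes was 13.6% above and 3.04% below in edgeR. In limma, 773 of 7924 tested genes lay above and 296 below. Of 30 other genes of mature oligodendrocytes, 13 could be tested; 2 lay above the median gene and 0 below (limma also 0, and 1 at an unadjusted p under 0.05 in edgeR). The pair was Omg, a surface glycoprotein, at 59.9 ± 6.25 CPM per kb (3.31 on the log2 scale, adjusted p = 6.6e-06, edgeR) and Tppp, a tubulin polymerization protein, at 56.8 ± 10.2 (3.24, adjusted p = 3.7e-06, edgeR). Omg is also made by neurons. Car2, carbonic anhydrase of glia, followed at 27.8 ± 30.3 CPM per kb, with 54, 885 and 1763 counts. Klk6, a protease of oligodendrocytes, had 0 counts in each library. Many of the 30 genes were missing from replicate 1, with 14 at 0 counts there, 3 in replicate 2 and 6 in replicate 3. Their median level was -3.65, -1.35 and -0.15 in replicates 1 to 3, the same order of libraries as for the 9 myelin genes. That of replicate 1 depends on the prior count.

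Of 10 transcription factors of the lineage 6 could be tested; 1 lay above the median gene, 1 below, and 4 did not pass. St18, a zinc finger gene that neurons also use, was the one above, at 34.0 ± 14.0 CPM per kb (2.48 on the log2 scale, adjusted p = 0.00417, edgeR). Sox10, the factor that drives myelin gene transcription with MYRF, lay below it, at -3.23 (adjusted p = 0.00745, edgeR), with 12, 44 and 14 counts. Myrf, the gene of that regulator, had 41, 90 and 213 counts and did not pass (-2.28, adjusted p = 0.266, edgeR). Olig1, a lineage factor, had 0, 193 and 375 counts, and Zfp488, a zinc finger factor of oligodendrocytes, had 12, 59 and 211. Both were highest in replicate 3. Nkx6-2, a homeobox factor, had 0 counts in each library.

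Enzymes of myelin lipid synthesis showed no member past the threshold, with 0 of 8 tested above and 0 below in edgeR, in limma and at an unadjusted p under 0.05. The cholesterol synthesis genes Hmgcs1 and Fdft1 had 8.41 ± 3.77 and 8.30 ± 5.80 CPM per kb. Fa2h, which makes the hydroxylated fatty acids of myelin lipids, had 288, 54 and 50 counts, or 67.9, 2.36 and 4.28 CPM, so that replicate 1 was the highest by far. In Mog and Mag, replicate 1 was instead the lowest. Gal3st1, the sulfatide synthesis gene, had 0 counts in each library. The median of the list was -1.17, -1.33 and -1.71 in replicates 1 to 3.

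Earlier stages of the lineage were also read. Of 8 genes of newly formed oligodendrocytes 5 could be tested, and 0 lay above or below (limma also 0; at an unadjusted p under 0.05 in edgeR 0 above and 1 below). Bcas1, a marker of cells that start to myelinate, led with 8.83 ± 6.67 CPM per kb, followed by the calcium release channel gene Itpr2 with 7.68 ± 6.63 and the small GTPase gene Rras2 with 4.01 ± 5.55. Enpp6, a marker of newly formed cells, had 2, 92 and 4 counts. Among 9 precursor genes 5 could be tested and Ptprz1, a receptor phosphatase that astrocytes also make, was called above (log2 level 3.34, adjusted p = 1.3e-05, edgeR). It had 164, 290 and 2213 CPM, so replicate 3 was high; limma called 0 of the 5 above and 1 below, Pdgfra, the receptor gene that marks precursors. Pdgfra had 7, 308 and 116 counts and did not pass in edgeR (-2.90, adjusted p = 0.100). The proteoglycan gene Vcan had 4.30 ± 1.42 and Lhfpl3 2.34 ± 2.09 CPM per kb, and Cacng4 had 0 counts in each library.

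Genes that handle myelin mRNA and the proteins that meet myelin on the axon lay higher, and neurons make most of them too. Of 8 tested genes of myelin RNA transport and translation, 2 lay above the median gene in edgeR and 1 in limma. Kif1b, a kinesin motor gene needed for Mbp mRNA transport in zebrafish, had 75.3 ± 26.2 CPM per kb (3.65 on the log2 scale, adjusted p = 8.1e-08, edgeR). Qk, whose RNA-binding protein holds and exports Mbp mRNA, had 29.5 ± 14.1 (2.27, adjusted p = 0.0131, edgeR). Tob1 followed with 24.5 ± 12.1, and Hnrnpf was lowest with 2.17 ± 1.66 CPM per kb. On the axon side, 8 of 14 tested genes lay above the median gene and 0 below, in edgeR and in limma. Over all tested genes, 13.6% lay above and 3.04% below in edgeR. The adhesion genes Cadm3 and Cadm2 had 67.7 ± 40.2 and 65.4 ± 18.8 CPM per kb, and the potassium channel gene Kcna1 had 62.5 ± 12.4. Nrg1, the growth factor that signals to myelinating glia, was lowest with 1, 8 and 63 counts.

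Markers of other cells were given beside these values because their levels also differed between libraries. The astrocyte list had median log2 levels of -1.49, -0.74 and 0.64 per kb, and the endothelial and mural list -1.54, 0.06 and 1.19, both in the order seen for myelin genes. Summed over 9 genes, astrocyte markers had 3084, 1396 and 3278 CPM, led by the glutamate transporter gene Slc1a2 at 175 ± 70.7 CPM per kb. Of 6 tested astrocyte genes 1 lay above the median gene, Slc1a2. Summed endothelial and mural markers had 443, 992 and 445 CPM. Rgs5, a pericyte gene, had 370, 747 and 67.2 CPM, and Cldn5, the claudin of brain endothelium, 0, 11 and 1 counts. Microglial markers summed to 3.30, 9.26 and 23.9 CPM, with 7, 1 and 3 of 8 genes at 0 counts, and C1qa at 0 in all. P2ry12, the microglial purine receptor gene, had 0, 64 and 202 counts. The part of these cells' RNA and of replicate 1's lower gene number in the spread of the myelin genes was not tested.

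Myelin of peripheral nerves was read as a contrast. Of 5 Schwann cell genes 1 could be tested, and it did not pass. Drp2, a dystrophin-related gene, led with 6.19 ± 4.03 CPM per kb. Ncmap, a membrane protein gene of peripheral myelin, was lowest with 0 counts in each library. The median of the list was near -5.77 in every library (SD 0.10, n = 3), which depends on the prior count.

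**Figure D4:**
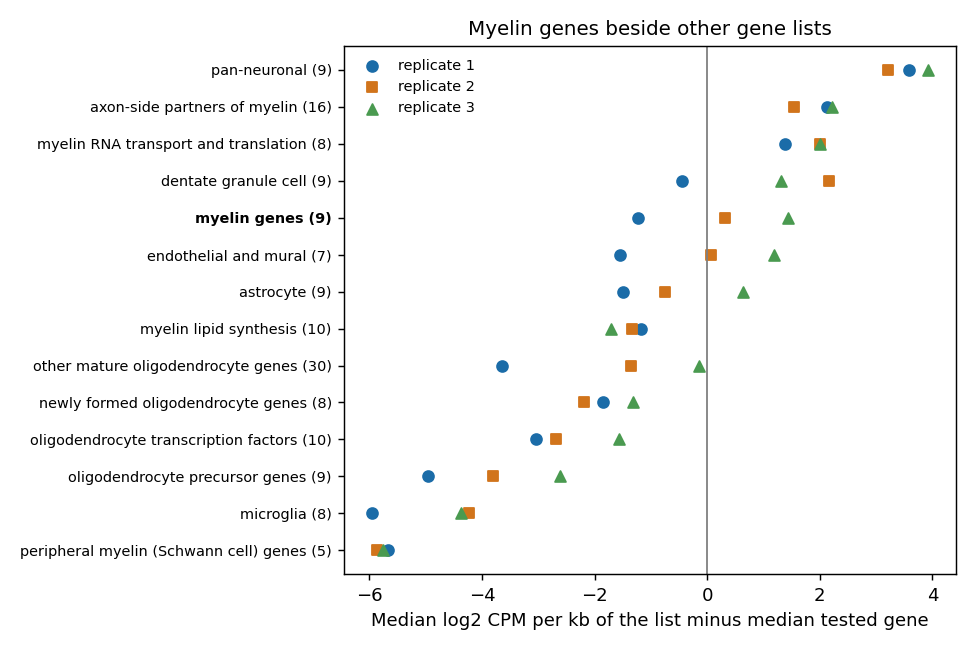
Median log2 CPM per kb of each gene list minus the median tested gene (line at 0), with 1 point for each library and the number of genes in brackets. The 9 myelin genes lie at -1.23, 0.32 and 1.44 in replicates 1 to 3, below pan-neuronal genes in each library and above the transcription factor, lipid, mature, newly formed and precursor lists in replicates 2 and 3.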

How the data were processed

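Per the labels' protocols, dentate gyrus was homogenised, tagged polysomes were purified and RNA was extracted. The deposited files hold whole-number read counts per gene symbol, 1 file per library, neither normalised nor pooled. Alignment with STAR 2.0.0e and counting with HTSeq on mm10 are named in the submitters' processing notes; the sources used here give no annotation, strand setting or filter. Genes took 16.3, 38.2 and 21.1% of listed reads in replicates 1 to 3; 50.7, 35.4 and 40.5% lay in no feature and 32.2, 24.8 and 37.5% at several places, and these summary rows were left out.

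From the counts, TMM factors (0.793, 1.19 and 1.06) and log2 CPM with a prior count of 2 were computed in edgeR 4.0.16 (R 4.3.3). Exon lengths (union of exons) and coordinates come from GENCODE M21 (GRCm38), perhaps another annotation than the authors used; 71.2% of the 32531 symbols matched. The filter filterByExpr (minimum count 10) and a length left 7924 genes. An intercept-only quasi-likelihood model was fitted with library size, exon length and the library's median tested gene as offset. Since glmTreat takes no such design, its p-value for a log2 threshold of 1 was computed from the same deviances. Calls are at an adjusted p under 0.05. Intervals are exact at 95%, cover counting error only, and take PCR copies as independent molecules. Members and lists were chosen with earlier results of these data known. Named were all 9 members, the 3 highest and the lowest gene per kb of each oligodendrocyte or axon list, the 2 highest and the lowest of each cell type list, and the 5 genes nearest in pattern; others named, such as Sox10, Myrf and Pdgfra, were picked after their values were seen. Not every gene of these kinds is reported here. Alternatives were no filter, size factors of DESeq2 1.42.0, a prior count of 0.5, no length correction, longest transcript length, limma 3.58.1 with TREAT, ribosomal protein and mitochondrial genes left out of the library size, thinning, and each replicate left out. Scripts were tested on simulated data. Figures were drawn with matplotlib 3.10.9.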

Additional observations from a re-analysis of the deposited data

How the results depend on the processing

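Of the 9 myelin genes, 2 lay above the median tested gene per kb with DESeq2 size factors, a prior count of 0.5, no length correction, longest transcript length, limma, the reduced library size and thinning. Tested members numbered 6 in these settings, but 5 with thinning. Of all 7924 tested genes, 1079, 1092, 1353, 1080, 773 and 1081 lay above in that order of settings. With thinning, 875 of 6972 did. With no filter, which lowers the median gene, 4 of 9 members lay above it (Mbp, Mobp, Cnp and Mal), against 24.3% of 15080 genes. Without replicates 1, 2 and 3 in turn, 3 of 8, 1 of 5 and 1 of 6 tested members lay above, against 16.6, 10.6 and 11.3% of genes, and 0, 0 and 1 below, against 4.73, 4.01 and 3.08%. The median level of the 9 genes was 2.11 with no filter and ran from -0.32 to 1.37 with 1 replicate left out. Leaving out a replicate also changed which genes were tested, and so the median gene. Its sign turned with no length correction (-0.73), longest transcript length (-0.27) and thinning (-0.20), each within the SD between libraries. Against pan-neuronal genes the median was -5.03 with no length correction and -3.85 to -2.68 with 1 replicate left out. Steps in the order beyond their spread numbered 2 with longest transcript length (Mobp over Cnp, Cldn11 over Opalin). Any step above Opalin depends on the prior count. With no length correction the 1 step was another, Mobp over Cnp (2.05 ± 0.62), and that above Opalin was lost (Cldn11 over Opalin, 3.16 ± 1.80). Without replicates 1, 2 and 3 in turn, 7 of 8, 5 of 5 and 5 of 6 tested members differed beyond sampling noise, against 85.3, 86.4 and 86.3% of genes. The level of Mbp held its call under every alternative, from 2.48 when thinned to 4.78 with no filter. Counts of 4 or 5 in replicate 1 limit Mog, Mag and Cldn11. No paired analysis was possible because the samples form 1 group.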
